A study of Homo sapiens with 6 samples.

Results

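The equilibrative nucleoside carriers of the SLC29A family and the SLC35F paralogs of the queuine carrier SLC35F2 were examined in HEK293T cells, a human embryonic kidney line that carries the SV40 large T antigen, grown without and with queuine. The members were the rows of the deposited table whose Ensembl identifiers, without version numbers, belong to SLC35F1, SLC35F3, SLC35F4, SLC35F5, SLC35F6 and SLC29A1 to SLC29A4, 9 genes of 63086. Depleted cells (0Q) were kept in medium with dialyzed fetal bovine serum, and supplemented cells (100Q) were the same depleted cells given queuine. The sample characteristics give a dose of 100 nM and the treatment protocol gives 1 µM for 24 hours, so the dose is uncertain. Each group had 3 libraries of messenger RNA. Whether the triplicates were separate cultures is not stated, so each p-value reflects only how far these libraries differ, and part of that spread may be technical.

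Queuine is a base that mammals obtain from diet and gut bacteria and insert, as queuosine, into the tRNAs that read the codons of tyrosine, histidine, asparagine and aspartate. It has to cross the plasma membrane, and SLC35F2 is the family member known to carry it. SLC29A proteins, the equilibrative nucleoside transporters (ENT), move nucleosides and some bases down their gradient, and the drug dipyridamole blocks the best known of them. The SLC35F proteins belong to a larger family named for its nucleotide sugar carriers, and most of them have no firmly assigned cargo.

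The libraries held 4023956 to 11398835 estimated counts, and the shallowest and the deepest were both 100Q libraries. The 9 genes took 0.0332% of all counts. Of 10 markers chosen for HEK293T, all 10 were expressed enough to test. Their summed level was 1373 to 1387 CPM (counts scaled to library size) in 0Q and 1231 to 1324 CPM in 100Q, so the 100Q libraries lay below all 0Q libraries. Taken singly, 10.6% of all tested genes had groups that did not overlap. Most of the sum was VIM (mean 757 CPM in 0Q, against 710 CPM in 100Q). The means of PAX2, LIN28B and CDH2 were higher in 100Q, and those of the other markers were lower. The part of these markers in the results was not tested. Of 13 markers of blood, liver, fibroblasts, endothelium and muscle, 5 were at 0 in all libraries, among them PTPRC, HBB and CDH5, and the summed level was 33 to 40.7 CPM in 0Q, against 35.6 to 36.7 CPM in 100Q, most of it from COL1A1.

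Because queuosine acts when codons are read, the coding sequences of the carriers were compared first. All 9 carriers had fewer codons for tyrosine, histidine, asparagine and aspartate than the median of 13.8% over 12673 tested genes with a complete coding sequence. SLC29A1 had the smallest share of the 9, 8.33% (38 of 456 codons), and SLC29A4 the largest, 13.2% (70 of 530). The genes differed more in how these codons end. In SLC29A4, 88.6% of them ended in C, above 95.8% of the tested genes, whereas in SLC35F5 only 30.8% did (16 of 52), above 9.04% of the tested genes. All members of the SLC29A family lay above the median of 55.6%, with 71.1% in SLC29A1, 81% in SLC29A2 and 86.5% in SLC29A3. The SLC35F genes were spread out, with 75% in SLC35F6, 69.4% in SLC35F3, 63% in SLC35F1 and 44.1% in SLC35F4. These are properties of the annotation, and no measurement of translation was made.

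The stretches of 30 codons richest in these codons show the contrast between the 2 extremes and the most abundant carrier. Each is read in frame from the coding strand of the GENCODE transcript, 5′ to 3′, with the codons for tyrosine, histidine, asparagine and aspartate in capitals.
SLC29A4, codons 83 to 112: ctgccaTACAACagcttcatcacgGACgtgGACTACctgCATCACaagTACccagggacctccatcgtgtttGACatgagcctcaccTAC
SLC35F5, codons 136 to 165: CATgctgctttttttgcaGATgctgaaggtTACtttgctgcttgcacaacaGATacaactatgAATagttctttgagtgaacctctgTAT
SLC29A1, codons 30 to 59: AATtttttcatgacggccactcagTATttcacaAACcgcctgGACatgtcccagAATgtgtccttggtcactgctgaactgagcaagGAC
In SLC29A4, 9 of the 10 capital codons end in C. In SLC35F5 the count is 1 of 6, and in SLC29A1 it is 3 of 6. The stretches were chosen for the number of these codons, not for how they end. Over its whole coding sequence SLC29A1 has 27 of 38 ending in C, a larger share than in its stretch.

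**Figure D1:**
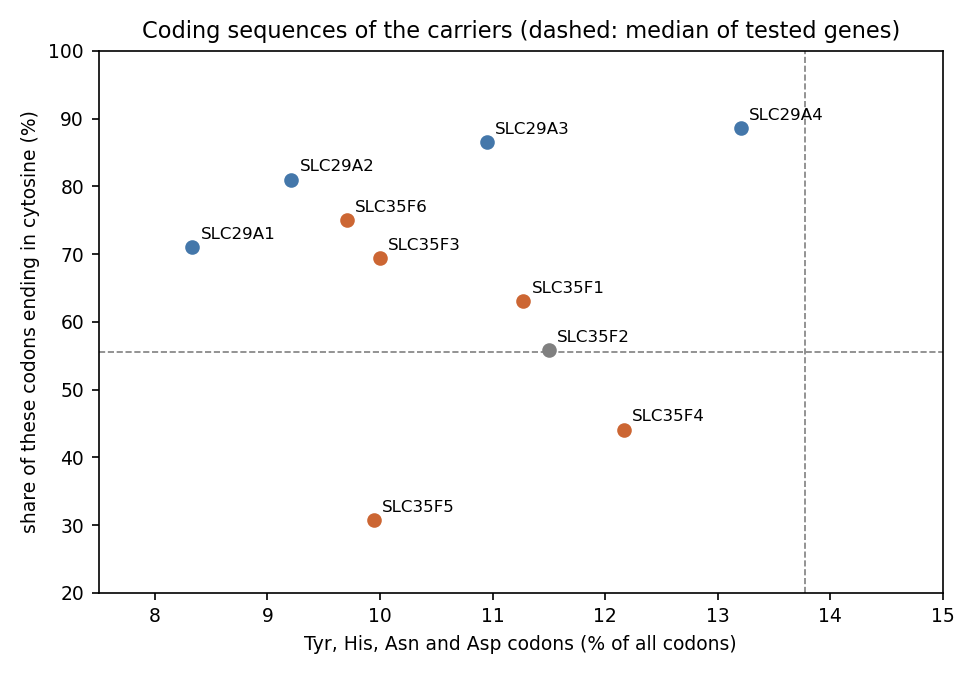
Share of tyrosine, histidine, asparagine and aspartate codons among all codons (x axis, %) against the share of those codons that end in cytosine (y axis, %), 1 point per gene (blue SLC29A, orange SLC35F, grey SLC35F2). Dashed lines are the medians of 12673 tested genes. All 9 carriers lie left of the vertical line, and SLC29A4 and SLC35F5 mark the top and the bottom.

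Which of the carriers HEK293T cells transcribe was asked next. A gene counted as expressed when it passed the default count filter of edgeR (minimum count 10). All 4 SLC29A genes passed, and of the 5 SLC35F genes SLC35F1, SLC35F5 and SLC35F6 passed, 7 members in all. SLC35F3 and SLC35F4 did not.

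SLC29A1 (ENSG00000112759.19; hg38 chromosome 6, 44219553 to 44234142, plus strand) encodes ENT1, the main plasma membrane nucleoside carrier of most cells. Replicates 1 to 3 of 0Q held 642, 766 and 711 counts, and those of 100Q held 474, 386 and 1115, in the order kept below. Scaled to library size these were 89.6, 96.4 and 93.9 CPM, then 91.3, 96.9 and 95.7 CPM. The 6 libraries lay close together, and the groups overlapped.

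SLC29A2 (ENSG00000174669.12; chromosome 11, 66362521 to 66372214, minus strand) encodes ENT2, which also carries nucleobases. Its levels were 48.9, 34.3 and 38.4 CPM in 0Q, against 42.4, 34.3 and 43.1 CPM in 100Q. The highest and the lowest library were both from 0Q. The gene overlaps B4GAT1-DT, a noncoding gene on the opposite strand, over 279 exonic bases. In all 6 libraries the deposited count of SLC29A2 had a fraction, and the sum with B4GAT1-DT was a whole number within 0.01 counts. In 0Q replicate 1 the pair had 350.32 and 23.68 counts, which sum to 374. B4GAT1-DT took 5.09% to 11.2% of the pair's counts. The level of SLC29A2 is uncertain to the extent that shared reads were divided between the 2 genes.

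SLC29A4 (ENSG00000164638.11; chromosome 7, 5274369 to 5306912, plus strand) encodes ENT4, also known as the plasma membrane monoamine transporter. It was at 27.3, 19.4 and 22.5 CPM in 0Q, against 23.7, 24.9 and 27.2 CPM in 100Q, and all 3 libraries of 100Q fell inside the range of 0Q. Its exons share 123 bases with TNRC18 on the opposite strand, and in 1 library, 0Q replicate 1, its count was fractional and summed with that of TNRC18 to a whole number. TNRC18 took 77.7% to 81.4% of the pair's counts.

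SLC29A3 (ENSG00000198246.10; chromosome 10, 71319259 to 71381423, plus strand) encodes ENT3, the carrier of lysosomes and other intracellular membranes. It had few counts: 29.04, 35 and 35 without queuine, then 26, 8 and 51 with it. These were 4.05, 4.40 and 4.62 CPM, then 5.01, 2.01 and 4.38 CPM. The single low library was 100Q replicate 2, the shallowest, and the groups overlapped. SLC29A3 shares 723 exonic bases with ENSG00000279406 on the same strand, which took 0% to 38.5% of the pair's counts, and the count of SLC29A3 was fractional in 1 library, 0Q replicate 1.

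SLC35F5 (ENSG00000115084.15; chromosome 2, 113705011 to 113756693, minus strand) had the most counts of the SLC35F genes. Its levels were 67, 65.2 and 85.5 CPM in 0Q, against 74.3, 77.3 and 69.2 CPM in 100Q. The library with the highest level was 0Q replicate 3, and all libraries of 100Q lay within the range of 0Q.

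SLC35F6 (ENSG00000213699.9; chromosome 2, 26764284 to 26781231, plus strand), a protein of lysosomal and mitochondrial membranes, was at 59, 47.8 and 48.9 CPM in 0Q, against 47.4, 54.7 and 53.9 CPM in 100Q, with overlapping groups. It shares 138 exonic bases with CENPA on the same strand, and its count was fractional in 1 library, 100Q replicate 3. CENPA took 31.9% to 37.1% of the pair's counts.

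SLC35F1 (ENSG00000196376.11; chromosome 6, 117907264 to 118317676, plus strand), a paralog known mainly from brain, was at 39.6, 47.9 and 49.1 CPM in 0Q. In 100Q it was at 42.7, 33.1 and 43.4 CPM. The lowest library was 100Q replicate 2, and the groups overlapped.

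SLC35F3 (ENSG00000183780.13; chromosome 1, 233904676 to 234324511, plus strand), a paralog linked to thiamine transport, was near the limit of detection. The 0Q libraries held 6, 3 and 4 counts, and the 100Q libraries 2, 6 and 12. The ratio of the summed counts relative to the summed library totals, 100Q over 0Q, was 1.71 with an exact 95% counting interval of 0.81 to 3.73, which includes 1.

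SLC35F4 (ENSG00000151812.15; chromosome 14, 57563920 to 57982194, minus strand) had 0 counts in all 6 libraries. A count of 0 allows a level of up to 0.263 CPM in the deepest library and up to 0.746 CPM in the shallowest (3 counts of the library total). These limits, like the counting interval above, hold for counting error alone, because amplified reads need not come from different molecules.

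**Figure D2:**
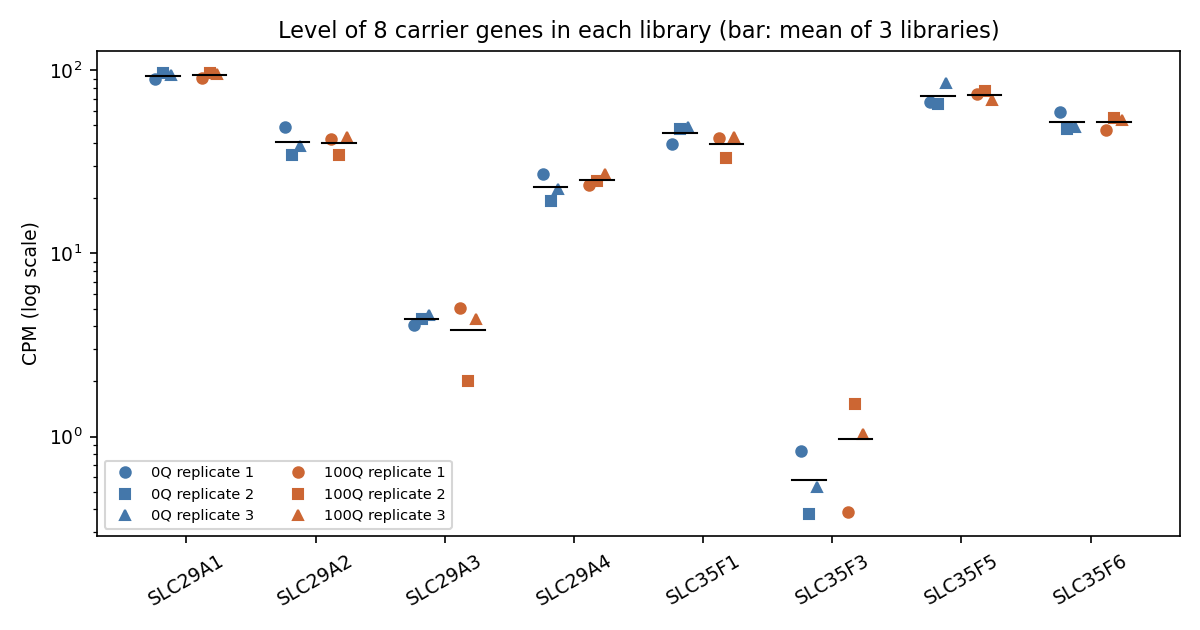
Level of each carrier in each library (y axis, CPM on a log scale; x axis, gene; blue 0Q, orange 100Q; marker shape gives the replicate, bars the mean of 3 libraries). SLC35F4, at 0 in all libraries, is not drawn. SLC29A1 sits between 89.6 and 96.9 CPM, and SLC29A3 is lowest in 100Q replicate 2 at 2.01 CPM.

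Levels of different genes were compared per length, as CPM per kilobase of annotated exons (the union over all transcripts). SLC29A1 was the most abundant member at 21.9 ± 0.69 CPM per kilobase (SD, n = 6 libraries), above 86.6% of 12673 tested protein-coding genes, whose median was 5.79. SLC29A2 followed at 14.8 ± 2.09 and SLC35F6 at 13.3 ± 1.2. The ranges of these 2 genes overlapped, and SLC29A2 was the higher in 5 of 6 libraries, so their order is not settled. SLC35F1 came next at 8.34 ± 1.14, then SLC35F5 at 5.45 ± 0.57 and SLC29A4 at 4.13 ± 0.52. From SLC35F6 down to SLC29A4 the ranges of neighbours over 6 libraries did not overlap. SLC29A3 stood far lower at 0.66 ± 0.17, above 6.99% of the tested genes, and SLC29A4 exceeded it by 6.30-fold (2.72-fold with the longest coding transcript as the length). SLC35F3 lay below SLC29A3 at 0.23 ± 0.13 with overlapping ranges, and SLC35F4 was at 0.

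The order depends on the length assigned to a gene. The counts stayed those of the whole gene with each length. Values per coding kilobase therefore also hold reads from outside the coding sequence. SLC35F5 has 13398 bases of annotated exons against 1569 coding bases, and per coding kilobase it moved from the fifth place to the third (46.6 ± 4.84 CPM per kilobase of coding sequence). It was then level with SLC35F6 (46.7 ± 4.21), and SLC29A2 dropped to the fifth place at 29.4 ± 4.16. The range of SLC29A2, 25.1 to 35.7, overlapped that of SLC35F1, 27.1 to 40.1. With the longest coding transcript as the length, the order of the 9 means was that of annotated exons. The ranges of SLC35F1 (6.49 to 9.62) and SLC35F5 (6.32 to 8.29) then overlapped, so their order is not settled with that length. SLC29A1 was first and SLC29A4, SLC29A3, SLC35F3 and SLC35F4 held the last 4 places with all 3 lengths.

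**Figure D3:**
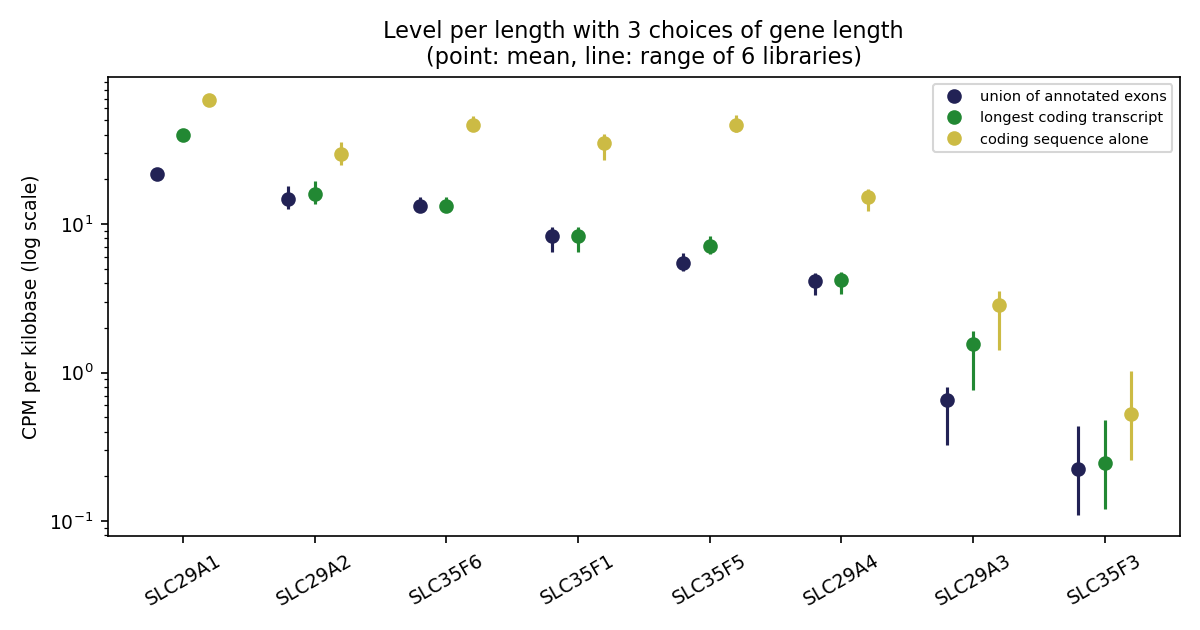
CPM per kilobase (y axis, log scale) of 8 carriers with 3 choices of gene length; points are means and lines the range of 6 libraries. SLC35F4, at 0, is not drawn. SLC35F5 is at 5.45 per kilobase of annotated exons and at 46.6 per kilobase of coding sequence.

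Within the SLC29A family, SLC29A1 made up the larger share of the summed level per length, with SLC29A2 behind it and SLC29A3 nearly absent. SLC29A1 took 52.8% ± 5.17 in 0Q and 53% ± 3.27 in 100Q (SD, n = 3). SLC29A2 took 35.9% ± 4.33 and 35.2% ± 3.03. SLC29A4 took 9.52% ± 1.05 and 10.4% ± 0.57, and SLC29A3 took 1.71% ± 0.2 and 1.45% ± 0.58. The difference between groups was smaller than the SD of either group for SLC29A1 and SLC29A2. With the longest coding transcript as the length, the share of SLC29A1 was 64.5% ± 4.58 in 0Q and 64.9% ± 3.26 in 100Q.

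Supplemented and depleted cells were then compared gene by gene, to see whether the carriers respond to queuine. None of the 7 tested members passed an adjusted p of 0.05 (edgeR quasi-likelihood test, Benjamini-Hochberg over 14905 genes; 0.0134% of all tested genes passed). None had an unadjusted p under 0.05 either, where 4.72% of all genes did, and in none did the groups fail to overlap, where 10.6% of all genes were apart. DESeq2 and limma-voom called 0 members as well, where they called 0.0789% and 0.00671% of the genes they tested. With 7 genes, counts of 0 lie near what these shares give. The median log2 fold change of the 7 was 0.0047, beside -0.0027 over all genes.

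SLC29A1 was the most tightly measured member. Its mean was 93.3 ± 3.41 CPM without and 94.6 ± 2.98 CPM with queuine (SD, n = 3 libraries each, as for all means below). Its log2 fold change, 100Q minus 0Q, was 0.02 ± 0.09 (SE; edgeR adjusted p = 0.995), a fold of 1.01 with a 95% interval of 0.89 to 1.16. Its replicates varied by 3.66% in 0Q and 3.15% in 100Q (coefficient of variation), near the 3.77% and 4.32% that counting error alone gives. SLC29A2 was at 40.5 ± 7.53 and 39.9 ± 4.88 CPM (log2 fold change -0.01, 95% interval -0.33 to 0.31; edgeR adjusted p = 0.997). Its replicates varied by 18.6% and 12.2%, above the 5.76% and 6.79% of counting error. With the counts of B4GAT1-DT added, an alternative chosen after the data were seen, its log2 fold change was -0.02 (-0.33 to 0.29).

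SLC29A4 had the highest point estimate of the 7 members. Its means were 23 ± 4.0 and 25.2 ± 1.79 CPM, with a log2 fold change of 0.14 ± 0.17 (SE, edgeR adjusted p = 0.991) and a fold between 0.86 and 1.41. With the counts of TNRC18 added, an alternative chosen after the data were seen, the log2 fold change was 0.17 (-0.04 to 0.37, edgeR unadjusted p = 0.0996). Most counts of that sum are those of TNRC18. SLC29A3, at 4.36 ± 0.29 and 3.80 ± 1.58 CPM, had -0.17 ± 0.45 (edgeR adjusted p = 0.995). Its interval ran from 0.46-fold to 1.72-fold, so a 2-fold decrease was not excluded at this depth. When single libraries were left out, its log2 fold change ran from -0.38 (without 100Q replicate 1) to 0.10 (without 100Q replicate 2), and it was -0.29 without 100Q replicate 3. With the counts of the overlapping ENSG00000279406 added, an alternative also chosen after the data were seen, it was -0.30 (-1.13 to 0.54).

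SLC35F1 had the lowest point estimate and the smallest p of the 7 members (edgeR unadjusted p = 0.206, adjusted p = 0.987). Its means were 45.6 ± 5.17 CPM in 0Q, against 39.8 ± 5.75 CPM in 100Q, and its log2 fold change was -0.18 ± 0.14 (SE), a fold of 0.88 (0.72 to 1.08). It was -0.08 without 100Q replicate 2 and -0.27 without 0Q replicate 1. SLC35F5 was at 72.5 ± 11.2 and 73.6 ± 4.14 CPM, a log2 fold change of 0.02 (-0.23 to 0.26), and SLC35F6 at 51.9 ± 6.21 and 52 ± 4.03 CPM, a log2 fold change of 0.0047 (-0.26 to 0.27).

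The 95% intervals of 6 of the 7 members, all but SLC29A3, lay within a 1.5-fold change in either direction. These intervals bound the change of the transcript and say nothing of smaller differences. SLC35F3 and SLC35F4 did not pass the count filter and were not in the edgeR fit.

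**Figure D4:**
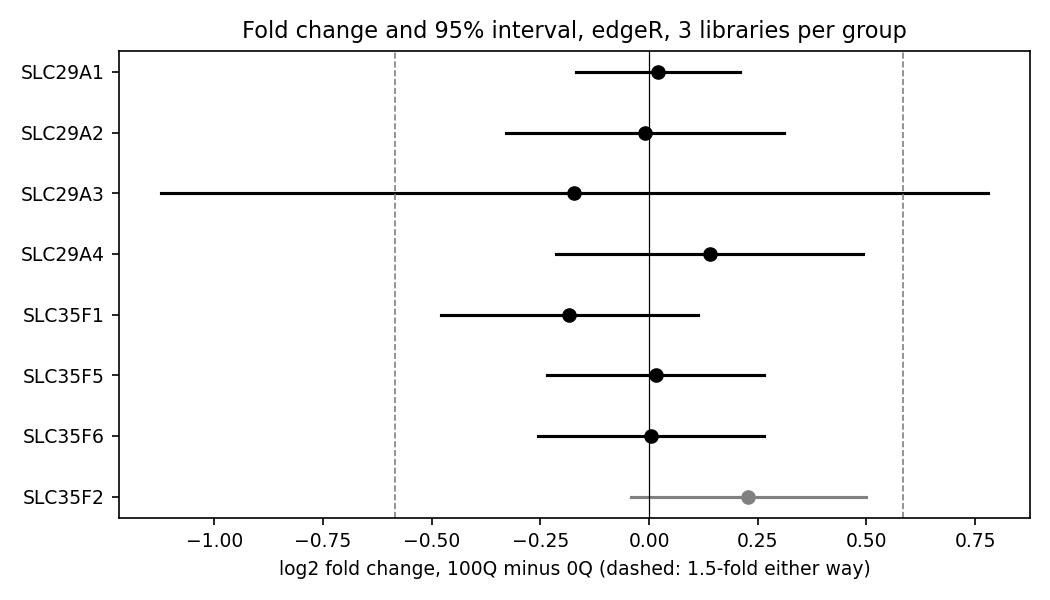
Log2 fold change of each tested carrier, 100Q minus 0Q (x axis; points), with its 95% interval (lines) from edgeR over 3 libraries per group. Dashed lines mark a 1.5-fold change. All intervals include 0, and that of SLC29A3, from -1.12 to 0.78, is the widest.

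SLC35F2 itself averaged 40.8 ± 3.37 CPM in depleted and 48.1 ± 5.01 CPM in supplemented cells (SD, n = 3), and its groups did not overlap, as in 10.6% of all genes (43.3 CPM in the highest depleted and 43.7 CPM in the lowest supplemented library; log2 fold change 0.23 ± 0.13, SE; edgeR adjusted p = 0.987). Per kilobase of annotated exons it was at 12.8 ± 1.58 CPM (n = 6), above SLC35F1. Its range, 10.6 to 15.4, overlapped that of SLC35F6, 12.1 to 15.1, so the order of these 2 genes is not settled. Per kilobase of coding sequence SLC35F2 was at 39.6 ± 4.91, and its range, 33 to 47.7, overlapped that of SLC35F1, 27.1 to 40.1. SLC35F5 (46.6) and SLC35F6 (46.7) then had higher means. The difference between the fold change of SLC35F2 and those of the members was not tested.

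Other genes that move or salvage nucleosides were examined as lists. The levels in these lists are CPM, not divided by length. The concentrative nucleoside carriers, which pump nucleosides with sodium, were at or near 0. SLC28A1 and SLC28A3 had 0 counts in all libraries and SLC28A2 had 2 counts in 1 library, 100Q replicate 1. The nucleobase carrier SLC43A3 was too low to test, at 0, 3 and 7 counts in depleted libraries against 4, 3 and 3 in supplemented ones. Of the 5 genes listed as nucleobase carrier or nucleotide export pumps, 4 were tested, 0 passed with edgeR and 0 had an unadjusted p under 0.05. Among the pumps ABCC5 had the highest CPM (52.9 ± 2.07 CPM in 0Q, against 56.2 ± 5.48 CPM in 100Q). The smallest p were those of ABCG2 (log2 fold change -0.48 ± 0.52, SE; edgeR unadjusted p = 0.369) and ABCC11 (-0.77 ± 0.88; edgeR unadjusted p = 0.393). ABCC11 had only 1.06 to 12.1 counts per library.

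Of 22 nucleoside salvage enzymes 20 were tested, 0 passed with edgeR and 0 had an unadjusted p under 0.05 (10 had higher and 10 lower point estimates). APRT, which salvages adenine, had the highest mean level in 100Q, 165 ± 22.3 CPM, beside 161 ± 17.9 CPM in 0Q (log2 fold change 0.03 ± 0.11, SE). HPRT1, which salvages hypoxanthine and guanine, was highest in 0Q, 163 ± 18.5 CPM, beside 146 ± 4.47 CPM in 100Q (log2 fold change -0.16 ± 0.09, SE). Adenosine kinase (ADK) had 0.23 ± 0.12. The list's median was 0.0042, beside -0.0027 over all genes.

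Of 21 other SLC35 genes, a family that includes the nucleotide sugar carriers of the Golgi, 20 were tested and 0 passed with edgeR. An unadjusted p under 0.05 was reached by 2 of them, beside 4.72% of all genes. SLC35C1, the GDP-fucose carrier, was at 17.2 ± 0.34 CPM in 0Q, against 22.3 ± 1.73 CPM in 100Q (log2 fold change 0.36 ± 0.16, SE; edgeR adjusted p = 0.987). SLC35B3, a carrier of the sulfate donor PAPS, was at 22 ± 2.85 and 16.7 ± 1.95 CPM (-0.40 ± 0.18; edgeR adjusted p = 0.987). SLC35E2B had the highest CPM of this list, not divided by length, at 120 ± 9.35 and 127 ± 6.86 CPM. The median of the 20 was 0.058.

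The genes whose levels over the 6 libraries were most like those of the 2 carriers with the highest CPM in each family, not divided by length, were listed as a description, with Pearson's r of log2 CPM among 10583 other genes of at least 10 CPM. For SLC29A1 these were RABL3 (0.98), ZNF569 (0.98) and POMT2 (0.98), and for SLC29A2 MYORG (0.99), ILDR2 (0.99) and GALK2 (0.98). For SLC35F5 they were ATE1, ANO5 and FKBP5 (0.98 each), and for SLC35F6 ZNF76 (0.98), ADAM15 (0.98) and ASB3 (0.97). With 6 libraries, which share their scaling, 43 to 61 genes had r above 0.9 with each carrier. SLC29A1 ranged over only 0.11 on the log2 scale, so its likeness rests on very small differences.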

How the data were processed

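The authors deposited estimated counts per Ensembl gene, not normalized; FastQC, STAR and RSEM are named in the submitters' processing notes with no versions, and the series design gives hg38. The genome builds listed with the processing notes also include the mouse builds mm39 and GRCm39. Not given in the sources used here are the authors' annotation, strand setting and any molecular identifiers. Groups and replicates came from the sample titles. Estimated counts were rounded, and all 6 libraries entered edgeR's quasi-likelihood fit (version 4.0.16, R 4.3.3) with TMM normalization and the default filter (minimum count 10), which kept 14905 genes. Adjusted p-values are Benjamini-Hochberg over these genes. CPM are relative to the counts of tested genes in a library, scaled by TMM. Names, lengths and coding sequences (MANE Select, otherwise the longest) came from GENCODE release 44, which matched 62541 of 63086 identifiers.

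The members, lists and tests were chosen with earlier results of these data known. Named genes are the 9 members, SLC35F2, and from each list those past the threshold or, failing that, the 2 with the smallest p and the highest CPM. For the 2 members with the highest mean CPM in each family (not divided by length), the 3 genes most like them are also named. Replicate pairs were not copies of each other: their counts gave a chi-square of 5.36 to 14.2 per degree of freedom. On simulated counts for 14905 genes the test recovered 56% of 50 genes changed 1.5-fold and 86% of 50 at 2-fold, with 12 wrong among 180 calls. The changed genes were drawn above a CPM floor that SLC29A3 does not reach. The simulation held far more changed genes than the 2 called here, which eases the adjusted threshold. These shares are therefore not the power for the members in these data. Alternatives were RLE, library size only, other filters, DESeq2 1.42.0, limma-voom (limma 3.58.1), a replicate block, leaving out each library, other gene lengths and, added later, summing overlapping pairs.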

Additional observations from a re-analysis of the deposited data

How the results depend on the processing

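No member passed the threshold under any alternative: over 97 values for the 7 tested members, the lowest adjusted p was 0.815. These values include the fits with overlapping pairs summed. For SLC29A4 that sum is mostly TNRC18 (77.7% to 81.4% of the pair's counts), so it is not a separate measure of SLC29A4. For SLC35F6, CENPA makes up 31.9% to 37.1%. Signs of SLC35F5, SLC35F6, SLC29A1, SLC29A2 and SLC29A3 changed when single libraries were left out. SLC35F1 stayed negative (-0.27 to -0.08) and SLC29A4 positive (0.03 to 0.28). The number of expressed members was 7 under each alternative except a mean count of at least 50, which left out SLC29A3 and gave 6. The count of genes called over the whole table was 2 with edgeR, 71 with no filter on low counts, 1 with the stricter filter, 14 with DESeq2, 1 with limma-voom and 0 to 6 when single libraries were left out; the cause was not tested. With the replicate number as a block it was 3. Whether the numbers pair the samples is not stated. Same-numbered libraries had correlations of deviations of 0.0043, 0.0153 and 0.246, and differently numbered ones had -0.185 to 0.151. With 3 libraries per group these values cannot settle whether same-numbered libraries shared a culture or day. Depth limits SLC29A3, with 8 to 51 counts per library, and SLC35F3, with 2 to 12.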
